A study of Mus musculus with 9 samples.

Results

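Clu, Msln, Sprr1a, Gja1, Spp1 and Il1rn are genes that mark foetal or regenerating (revival) intestinal epithelium, and they were picked by symbol, 6 of the 50600 genes counted in this series. RNA was sequenced from 9 mouse small-intestinal cultures in 3 groups of 3 numbered replicates. Of these, 6 were WT organoids (strain label C57BL/6), grown for 24 hr in conditioned medium mixed with an equal volume of concentrated organoid medium holding EGF, Noggin and R-spondin1. The other 3 were untreated tumoroids, which are cultures of tumour epithelium from Apc1638N/+ mice (strain label MIX), and the study's methods describe a tumoroid medium without R-spondin and older donor mice than for the organoids. The deposited protocol names organoid medium for untreated cultures instead, and the methods give a mixed background for all mice, so whether medium and strain differed is in doubt. Genotype and donor age, and medium and strain where these differed, cannot be told apart in any comparison of tumoroids with organoids, and the Apc allele shown is the germline one. For every organoid library the title and the treatment field name opposite media, conditioned by tumoroids (T-cM) or by WT organoids (WT-cM). Groups are named by title here, as organoids T-cM-titled or WT-cM-titled, and if the treatment field holds instead, each direction given between these 2 groups is the other way. The labels do not tie libraries to mice, while the methods state in general that lines from 3 different mice or more were used, and p-values measure the spread between these cultures.

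The epithelium of the foetal gut expresses a set of genes that is low in the adult crypt and villus. After injury, surviving adult cells switch part of this set on again while the crypt is rebuilt, a state linked to the YAP coactivator and its TEAD partners. Cells of this state that are marked by Clu expression are called revival cells. The 6 genes encode proteins of unlike function. Clu encodes clusterin, a secreted chaperone, Msln the surface glycoprotein mesothelin, Sprr1a a small proline-rich protein that is cross-linked into the cornified envelope of squamous cells, and Gja1 the gap junction protein connexin 43. Spp1 encodes osteopontin, a secreted ligand of CD44 and of integrins, and Il1rn the antagonist that blocks the interleukin-1 receptor. The comparison between organoid groups asks how far medium from tumoroids alters these genes in WT epithelium, and the comparison with tumoroids asks how tumour epithelium itself expresses them.

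In the mouse genome (GRCm38, Gencode release vM21) the genes lie on different chromosomes, so none is a neighbour of another. Clu lies on chromosome 14 from 65968483 to 65981547 on the plus strand, Msln on chromosome 17 from 25748613 to 25754378 on the minus strand, and Sprr1a on chromosome 3 from 92483952 to 92485895 on the minus strand. Gja1 lies on chromosome 10 from 56377330 to 56402513, Spp1 on chromosome 5 from 104435118 to 104441050 and Il1rn on chromosome 2 from 24336853 to 24351494, all on the plus strand. Reads were counted over the exons of each gene. Of the 6, only Spp1 shares exon bases with another gene, Gm42793 on the same strand, which had 0 reads in every organoid library and 6, 31 and 13 in tumoroids.

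Promoters from RefSeq (GRCm38.p6) were at hand for Sprr1a, Gja1, Spp1 and Il1rn, 4 of the 6 genes, with 7 start sites in all. They were searched because AP-1 and TEAD sites are known from genes of regenerating epithelium and TCF/LEF sites from Wnt targets. The 250 bases before each start were searched on both strands for the AP-1 letters TGANTCA, the TEAD letters GGAATG and the TCF/LEF letters ATCAAAG. AP-1 letters stood before 3 of the 7 starts and in 6.75% of 32851 such windows of all genes. TEAD letters stood before 1 start, the most downstream of the 3 of Il1rn (first base at -24), and in 12.6% of windows, and TCF/LEF letters before 0, against 3.21%. The 160 bases before the 3 starts with AP-1 letters are shown 5′ to 3′ on the gene's own strand, so that the place of the letters can be read, with the matches in capitals. They cover chr3:92485882-92486041 on the minus strand for Sprr1a, chr2:24336700-24336859 on the plus strand for the first start of Il1rn, and chr10:56377140-56377299 on the plus strand for Gja1.
Sprr1a: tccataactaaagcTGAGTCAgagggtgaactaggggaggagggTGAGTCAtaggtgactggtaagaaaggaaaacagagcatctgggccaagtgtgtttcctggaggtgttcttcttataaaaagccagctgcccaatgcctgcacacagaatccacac
Il1rn: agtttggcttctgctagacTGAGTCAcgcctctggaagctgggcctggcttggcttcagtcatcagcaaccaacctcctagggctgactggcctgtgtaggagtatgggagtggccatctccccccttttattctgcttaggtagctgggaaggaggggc
Gja1: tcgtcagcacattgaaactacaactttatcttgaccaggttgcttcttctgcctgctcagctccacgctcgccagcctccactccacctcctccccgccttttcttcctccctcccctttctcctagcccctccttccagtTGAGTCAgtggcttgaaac
Sprr1a held the letters at 2 places (first bases at -146 and -116), Il1rn at 1 (-141) and Gja1 at 1 (-19), counted back from the start site. A match in these letters is a description of the sequence and says nothing of binding in these cells.

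Libraries held from 16541635 to 25170966 counted reads, and 3 reads, taken as the least that shows expression, correspond to 0.103 to 0.204 CPM (reads per 1000000, scaled to the normalised library size), a limit that covers counting error only. Genes that reached a TPM of 1 (reads per gene length, as a share of the library) in any library were tested, 16208 in all. All 6 genes were among them, but Gja1 only through 1 tumoroid library and Spp1 only through tumoroids. Those list genes tested that had at most 3 reads in every organoid library also entered only through tumoroids. Counts of lists that hold such genes are no measure of the list in tumoroids. Epithelial markers were present throughout, with Epcam between 739 and 1152 CPM and Cdh1 between 722 and 1027 CPM. One library, tumoroid 3, stood apart from the other tumoroids in 3 of 5 squamous markers, and values without it are given where it alters a call or a list. A gene "passed" at an adjusted p under 0.05 and was "called" when its log2 fold change also exceeded 1 in size.

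Ordered by mean TPM, which allows levels of different genes to be compared, the 6 organoid libraries expressed Sprr1a most (90.9 ± 41.2, SD, n = 6) and Msln next (77.4 ± 35.1), which is within the spread of Sprr1a. Clu (9.39 ± 7.63) and Il1rn (7.96 ± 2.29) lay lower and overlapped each other. Spp1 was at 0.143 TPM and Gja1 at 0. In tumoroids the order was another one, with Spp1 at 2626 ± 1372 TPM (SD, n = 3), Msln at 2123 ± 1482 and Clu at 1466 ± 722, which do not separate given their spread. These 3 genes ranked 37, 50 and 80 from the top among all genes tested by mean TPM in tumoroids. Il1rn was at 119 ± 23.9 TPM, Sprr1a at 86.8 ± 144 and Gja1 at 1.31 ± 1.54. Sprr1a was thus the leading gene of the 6 in organoids and the fifth in tumoroids, with an SD above its mean there.

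**Figure D1:**
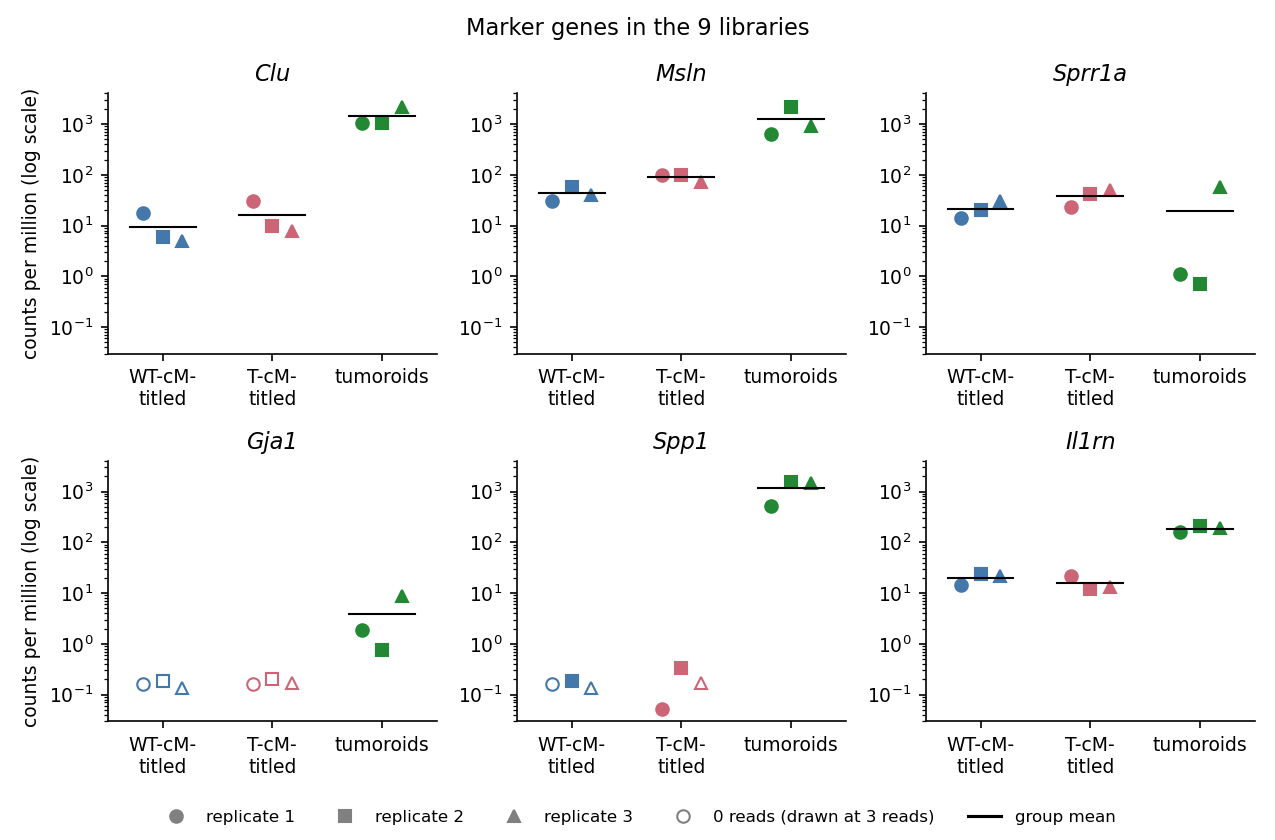
CPM (log axis) of the 6 genes in each of the 9 libraries, by group, with symbols for replicate numbers and lines for group means where every library had reads. Open symbols are libraries with 0 reads, drawn at the level of 3 reads. Clu, Msln, Spp1 and Il1rn were higher in each tumoroid library than in any organoid library, while the 3 tumoroid libraries of Sprr1a spread from 0.706 to 56.9.

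Between the organoid groups, Clu, Msln and Sprr1a rose in T-cM-titled organoids, by 1.68, 2.10 and 1.80 times in mean CPM. Il1rn, Spp1 and Gja1 did not pass the test. Of all genes tested, 5.03% passed in the higher direction and 5.05% in the lower one, and the 6 genes were proposed with results of these data known. Msln alone was called, against 0.673% of genes called higher (109 genes, with 70 called lower). Libraries were compared within replicate numbers, since same-numbered organoid cultures deviated together.

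Msln, which binds the mucin MUC16, had 98.8, 99.4 and 72.0 CPM in T-cM-titled organoids 1, 2 and 3 and 30.3, 57.6 and 40.7 CPM in the WT-cM-titled ones. Every T-cM-titled library lay above every WT-cM-titled one, which was so for 5.12% of all genes. The ratios within pairs 1, 2 and 3 were 3.26, 1.73 and 1.77, and the fitted log2 fold change was 1.11 (SE 0.12, adjusted p = 1.17e-07).

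Sprr1a had 22.8, 42.6 and 50.9 CPM in T-cM-titled and 13.8, 20.1 and 30.6 CPM in WT-cM-titled organoids. The groups overlapped, because pair 1 was low and pair 3 high in both media, yet each pair rose, by 1.65, 2.12 and 1.66 times. The log2 fold change was 0.86 (SE 0.11, adjusted p = 1.97e-06).

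Clu had 30.8, 9.70 and 7.67 CPM in T-cM-titled and 17.8, 5.96 and 4.96 CPM in WT-cM-titled organoids. Pair 1 stood above the other pairs in both media, so that its WT-cM-titled library exceeded the T-cM-titled libraries of pairs 2 and 3. Within pairs the ratios were alike at 1.73, 1.63 and 1.55, with a log2 fold change of 0.73 (SE 0.13, adjusted p = 2.93e-04). The rank of pair 1 was thus opposite for Clu, where it was the highest pair, and for Sprr1a, where it was the lowest. Clu, Msln and Sprr1a were each higher in all 3 pairs, as were 18.9% of all genes.

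Il1rn had 22.2, 12.3 and 12.9 CPM in T-cM-titled and 14.5, 24.2 and 21.9 CPM in WT-cM-titled organoids. It was higher in pair 1 (ratio 1.53) and lower in pairs 2 and 3 (ratios 0.507 and 0.589), and its log2 fold change of -0.35 (SE 0.17) had an adjusted p of 0.23. Without pair 1 the log2 fold change was -0.85 (SE 0.13, adjusted p = 7.84e-09), without pair 2 it was -0.07 (adjusted p = 0.983) and without pair 3 -0.16 (adjusted p = 0.845). With no filter on TPM it was -0.36 with all pairs and passed (adjusted p = 0.0407), so whether this antagonist passed depended on the pairs and on the filter, and it was called in none of these fits. Spp1 had 1, 5 and 0 reads in T-cM-titled and 0, 3 and 0 reads in WT-cM-titled organoids (adjusted p = 0.718), and Gja1 had 0 reads in all 6. With 3 reads as the limit, only a large difference in either gene could have been detected at this depth.

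**Figure D2:**
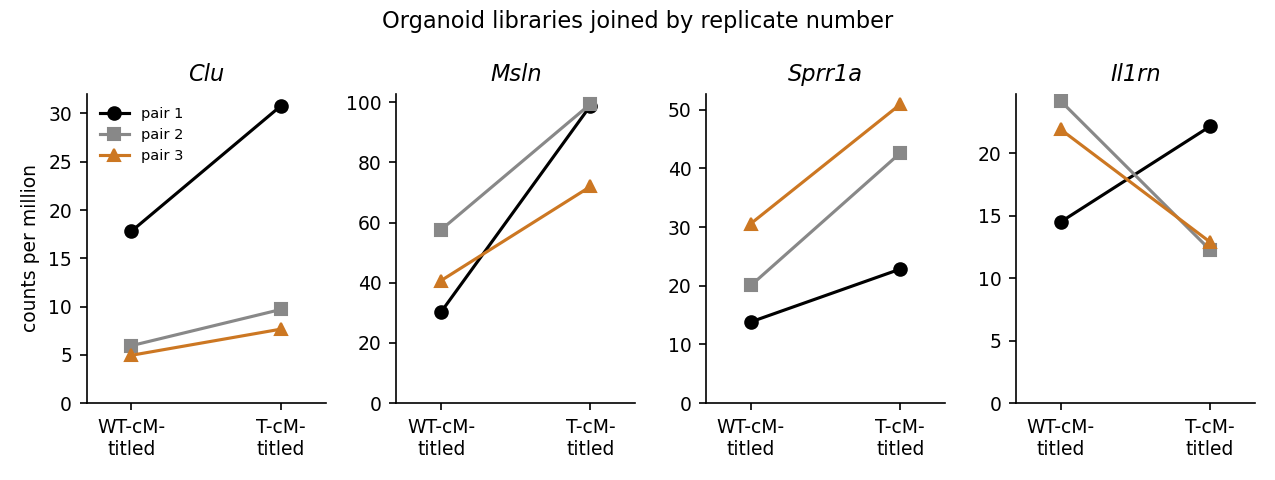
CPM of Clu, Msln, Sprr1a and Il1rn in the 6 organoid libraries, on linear axes from 0, with lines joining the libraries of the same replicate number. The lines of Clu, Msln and Sprr1a all climb from the WT-cM-titled to the T-cM-titled library, whereas Il1rn climbs in pair 1 and falls in pairs 2 and 3.

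The p-values of the 3 risen genes, though not their fold changes, depended on the pairing and on pair 2. Without the replicate block the log2 fold changes stayed at 0.75 for Clu, 1.08 for Msln and 0.86 for Sprr1a, but the adjusted p was 0.929, 0.603 and 0.874, and 0 genes of all tested were called. Without pair 2 the log2 fold changes were 0.73 for Clu, 1.26 for Msln and 0.73 for Sprr1a, with an adjusted p of 0.237, 0.203 and 0.204 and 1 gene called of all tested, and without pair 1 Msln passed with a log2 fold change of 0.82 and was no longer called.

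Other genes linked to foetal or revival epithelium were read beside the 6, from a list of 19 that was likewise drawn up with results of these data known. Of these, 7 rose in T-cM-titled organoids, 0 fell and 12 did not pass, with a median log2 fold change of 0.36 against 0 over all genes. S100a6, a calcium-binding protein, rose by 1.11 on the log2 scale (SE 0.08, adjusted p = 2.62e-10), from 235 to 395 CPM in WT-cM-titled to 609 to 788 CPM in T-cM-titled libraries. The keratin Krt7 (0.63), the urokinase receptor Plaur (0.76) and the annexin Anxa3 (0.56) followed, together with Tnfrsf12a (0.44) and the alarmin Il33 (1.32). Ly6a, which encodes the foetal marker Sca-1, had a log2 fold change of 0.74 (SE 0.25, adjusted p = 0.0563), with 11.2 against 2.64 CPM in pair 1, 3.94 against 4.74 in pair 2 and 5.35 against 4.34 in pair 3. Without pair 1 it was 0.06 (adjusted p = 0.923) and without pair 2 it was 1.17 (adjusted p = 0.431). Without pair 1 the count was 7 higher and 4 lower, without pair 3 it was 7 and 0, and without pair 2 or without the block 0 genes of the list passed.

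Genes that work with the 6 were read in the same comparison. No clusterin receptor (2 of 3 tested) and no connexin nor Tjp1 (6 of 16 tested) passed, with median log2 fold changes of -0.14 and -0.15, and neither did the mesothelin relative Mslnl at 0.07 (adjusted p = 0.996). The clusterin receptor not tested, Lrp2, had 5, 9 and 27 reads in T-cM-titled and 0 reads in each WT-cM-titled library. Of 18 cornified envelope genes tested, 1 rose and 1 fell (median 0). Lor, which encodes loricrin, had 0.582, 1.90 and 2.48 CPM in T-cM-titled libraries and 0.165, 0.122 and 0 in WT-cM-titled ones (adjusted p = 3.07e-05), and the transglutaminase Tgm2 fell by 0.88 on the log2 scale (adjusted p = 5.83e-06). Mmp7, a protease that cleaves osteopontin, fell by 0.35 (adjusted p = 0.0154) as the only one of 7 osteopontin receptors and relatives tested (median 0.00), and Il33 was the only one to pass of 16 genes of the interleukin-1 system (median 0.04). Without pair 1, 5 cornified envelope genes fell, and in the interleukin-1 system Il33 and Myd88 rose and Il18 fell by 0.39 (adjusted p = 0.00127). Without pair 3 Mmp7 did not pass (adjusted p = 0.18), and without pair 2 or without the replicate block 0 genes of any of these lists passed.

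Markers of other cell types were summed over their lists in each organoid library, and the ranges of both groups overlapped. The TPM of 5 squamous markers was 2.21 to 3.72 in T-cM-titled and 2.98 to 3.92 in WT-cM-titled libraries, that of 8 immune markers 7.12 to 9.12 and 7.77 to 9.63, and that of 4 mesothelial markers 4.12 to 20.6 and 3.84 to 20.6. Fibroblast markers (7 genes) summed to at most 0.53 TPM and endothelial markers (3 genes) to at most 0.44 in either group. Of the marker genes tested, the stomach gene Tff1 alone passed (log2 fold change 1.07, adjusted p = 0.0348). Its adjusted p was 0.63 without pair 2, 0.154 without pair 3 and 0.929 without the replicate block. Without pair 1 Tff1 still passed, and the squamous marker Dsg3 passed as lower (log2 fold change -1.45, adjusted p = 0.0249). The 6 stomach markers summed to 2.67, 22.6 and 7.54 TPM in T-cM-titled organoids 1, 2 and 3 and to 1.88, 8.84 and 4.37 in WT-cM-titled ones. Within pairs the stomach sum was thus higher in each T-cM-titled library and the squamous sum lower in each, the latter at 3.72, 2.21 and 3.61 against 3.92, 2.98 and 3.84. The sum of the 6 intestinal epithelial markers was also higher in each T-cM-titled library, at 10960, 9417 and 7830 TPM against 9221, 8685 and 7628. The part of these cells in the levels of Clu, Msln and Sprr1a was not tested.

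Tumoroids expressed Clu, Msln, Spp1 and Il1rn at levels far above organoids, and Gja1 where organoids had no reads, while Sprr1a did not pass the test. Mean CPM was 111 times higher for Clu, 18.7 times for Msln and 10.3 times for Il1rn. Of all genes tested, 29.6% passed in the higher direction, 20.8% in the lower one, and 21% were called higher, with a median log2 fold change of 0.16. In every tumoroid library Clu, Msln, Spp1, Gja1 and Il1rn lay above every organoid library, as did 25.6% of genes, and since Gja1 and Spp1 were tested only because tumoroids had them, the count of 5 of 6 is no measure of the group. In bulk RNA, a difference in the share of cells of one type and a difference in RNA per cell cannot be told apart.

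Among the secreted proteins, osteopontin showed the widest gap. Spp1 had 11673, 42307 and 43783 reads in tumoroids 1, 2 and 3 (529, 1573 and 1504 CPM) and 9 reads in the 6 organoid libraries together. No organoid library exceeded 5 reads, and tumoroid 1 had the fewest of the tumoroids. The ratio of tumoroid to organoid CPM was 14510, with an exact Poisson interval of 7642 to 31720 (95%) that covers the counting error of the 9 reads alone, and the adjusted p was 1.07e-06. Of the 9 reads, 8 were in pair 2 (5 and 3), and the fitted log2 fold change of 13.78 became 14.73 without T-cM-titled organoids 2 and 15.44 without WT-cM-titled organoids 2, so the size of the gap is poorly set.

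Clu had 1036, 1028 and 2205 CPM in tumoroids 1, 2 and 3 against 4.96 to 30.8 in organoids. Tumoroid 3 had about as much as the other two together, and all 3 exceeded the highest organoid library. The log2 fold change was 6.84 (SE 0.58, adjusted p = 1.48e-05).

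Il1rn was the most even of the genes in tumoroids, with 158, 209 and 189 CPM against 12.3 to 24.2 in organoids. Its log2 fold change was 3.37 (SE 0.22, adjusted p = 3.90e-06).

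At the cell surface, Msln had 641, 2154 and 931 CPM in tumoroids against 30.3 to 99.4 in organoids, with tumoroid 2 the highest. Its log2 fold change was 4.32 (SE 0.36, adjusted p = 1.30e-05), and 3.65 without tumoroid 2 (adjusted p = 7.88e-06).

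Gja1 had 41, 20 and 257 reads in tumoroids (1.86, 0.744 and 8.83 CPM). Against the level of 3 reads per library in organoids, the tumoroid mean was at least 22.6-fold higher (adjusted p = 0.00247), the mean without tumoroid 3 at least 7.72-fold higher (adjusted p = 0.00186), and the lowest tumoroid library at least 3.65-fold higher. Even so, connexin 43 reached 1 TPM in tumoroid 3 alone. The fit without tumoroid 3 kept the filter over all 9 libraries, so Gja1 was tested there only through the library left out.

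Sprr1a split the tumoroids. Tumoroids 1 and 2 had 25 and 19 reads (1.13 and 0.706 CPM), below every organoid library (13.8 to 50.9 CPM), whereas tumoroid 3 had 1655 reads (56.9 CPM), above every one of them. Tumoroid libraries thus differed 80.5-fold in Sprr1a, compared with 3.68-fold among organoids and 1.32-fold for Il1rn among tumoroids. The log2 fold change was -0.56 (SE 1.08, adjusted p = 0.698), and without tumoroid 3 it was -5.00 (SE 0.51, adjusted p = 5.34e-05). For the other 5 genes the call held whichever library was left out, with the genes tested kept the same. This says little of Gja1, admitted to the test by tumoroid 3 alone, or of Spp1, admitted by tumoroids alone.

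**Figure D3:**
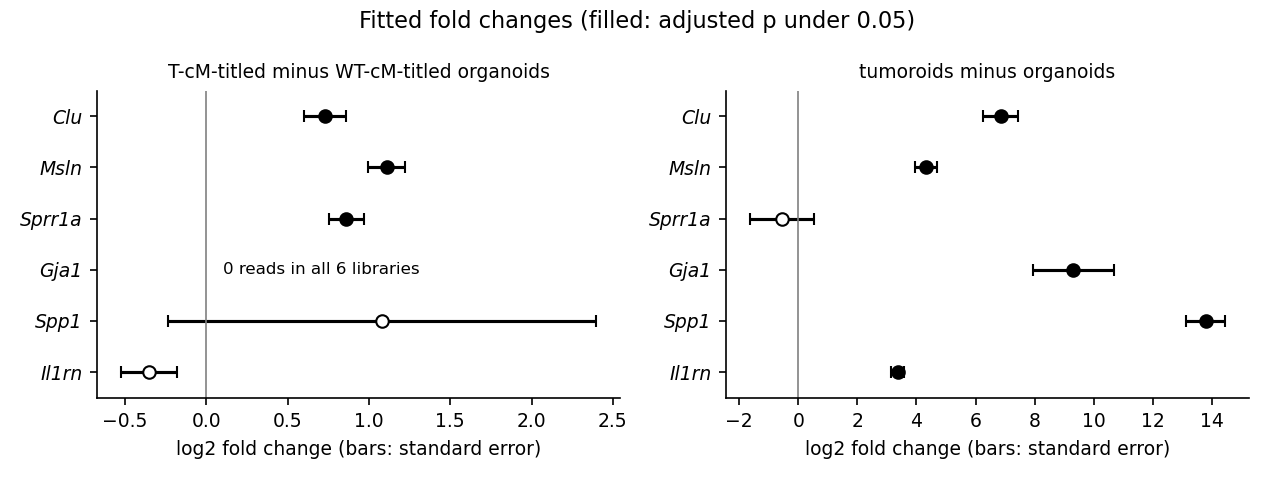
Fitted log2 fold changes of the 6 genes (points) with standard errors (bars) between the organoid groups (left) and between tumoroids and organoids (right). Filled points passed at an adjusted p under 0.05, and the axes differ in range. On the left Msln is the farthest from 0 among filled points at 1.11, and on the right Sprr1a is the one open point, at -0.56.

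Tumoroid 3 also stood apart in 3 of 5 markers of squamous epithelium, and all 5 are given beside Sprr1a and Gja1. Krt14, a keratin of basal squamous cells, had 14.7, 3.98 and 204 CPM in tumoroids 1, 2 and 3, Krt5 had 0.589, 0.372 and 17.4, and Trp63, the transcription factor of squamous progenitors, 0.317, 0.112 and 36.6. The desmoglein Dsg3, by contrast, had 15.8, 61.7 and 14.5 CPM, lowest in tumoroid 3, and Krt10 had 2.45, 1.82 and 2.78 in tumoroids and 1.15 to 2.75 in organoids. In organoids Dsg3 reached at most 1.52, Krt14 0.339, Krt5 0.271 and Trp63 0.0678 CPM. Of the 5 squamous markers, 4 rose in tumoroids, and their summed TPM was 44.8 to 478 there against 2.21 to 3.92 in organoids. Without tumoroid 3, 3 of the 5 rose, and the median log2 fold change fell from 5.22 to 2.45, with an adjusted p of 0.0674 for Krt5 and 0.0486 for Trp63. The part of squamous cells in the levels of Sprr1a and Gja1 was not tested.

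**Figure D4:**
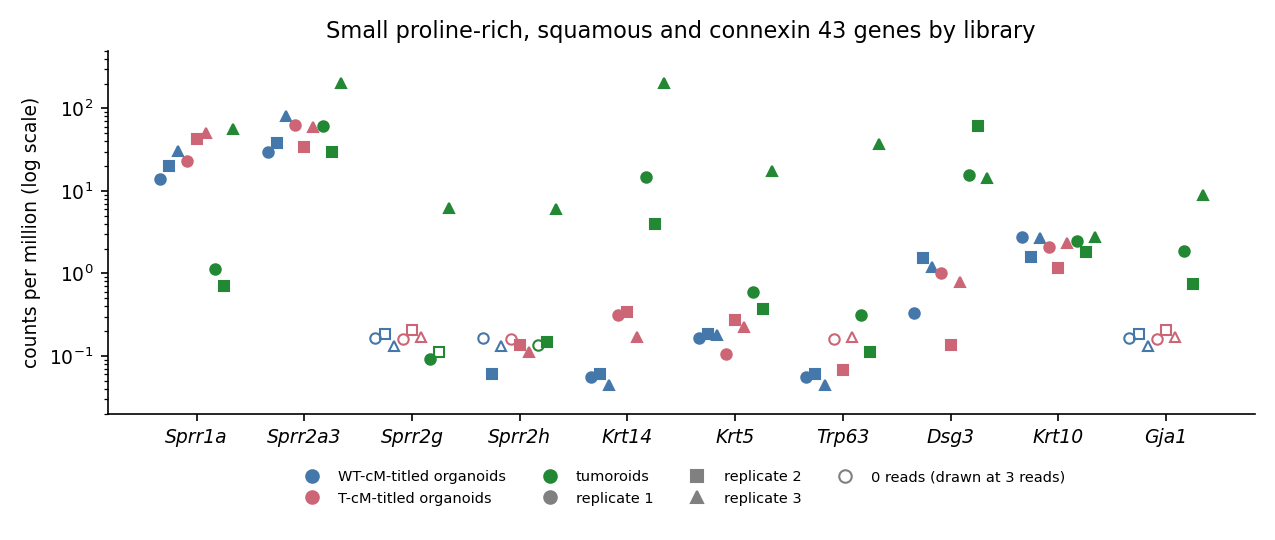
CPM (log axis) of Sprr1a, 3 further small proline-rich genes (chosen after their values were seen), the 5 squamous markers and Gja1 in each library, coloured by group, with symbols for replicate numbers and open symbols for 0 reads (drawn at 3 reads). Tumoroid 3 is well above the other tumoroids for 8 of these genes but not for Krt10, at 1.82 to 2.78 CPM in tumoroids, or Dsg3, which is highest in tumoroid 2, and tumoroids 1 and 2 are the lowest libraries for Sprr1a.

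Sprr1a lies among related genes of the cornified envelope. Of 18 such genes tested, 10 rose in tumoroids, 0 fell and 8 did not pass, where 29.6% of all genes passed in the higher direction. The median log2 fold change was 4.08, or 1.57 with 9 genes that had at most 3 reads in every organoid library set to that level. These 9 genes were tested only because tumoroids had them, so the counts are no measure of the list. Without tumoroid 3 the count was 7 higher and 1 lower and the median 0.34. Lor had 5.94, 42.5 and 26.1 CPM in tumoroids 1, 2 and 3, and the cross-linking enzymes Tgm1 and Tgm2 rose by 5.27 and 1.89 on the log2 scale (adjusted p = 3.49e-05 and 3.00e-05), or by 4.28 and 1.82 without tumoroid 3. The plakins Ppl (1.72) and Evpl (0.95) rose as well. Among the small proline-rich genes, Sprr2g had 0.0906, 0 and 6.29 CPM and Sprr2h 0, 0.149 and 6.08 CPM in tumoroids 1, 2 and 3. Sprr2a1, Sprr2a2 and Sprr2a3 are near-identical copies whose reads counting can divide between them, and none of them passed. The most abundant of them, Sprr2a3, had 61.7, 29.9 and 204 CPM in tumoroids and 29.3 to 80.5 CPM in organoids.

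Gja1 is one of the connexins, of which most were below the level tested, since 6 of 16 genes (with the scaffold protein Tjp1) were tested. Of these, 2 rose and 0 fell. Gjb5 passed at 1.41, 0.483 and 2.37 CPM against at most 0.113 (adjusted p = 7.17e-04). The epithelial connexins Gjb1 and Gjb2 had log2 fold changes of -0.85 and 0.30 and did not pass (adjusted p = 0.0547 and 0.419), nor did Tjp1 at 0.73 (adjusted p = 0.0691). The median was 0.88, and without tumoroid 3 the count was 3 higher and the median 1.04.

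Of the osteopontin receptors and relatives, 7 of 15 were tested, 6 rose and 0 fell, with a median of 1.98. Cd44, a receptor that also marks intestinal stem cells and tumours, had 137, 50.1 and 340 CPM in tumoroids and 12.2 to 43.8 CPM in organoids (log2 fold change 2.91, adjusted p = 0.00232). The integrin chains Itgb6 (2.69), Itga5 (3.45), Itgav (1.16) and Itgb1 (0.62) and the protease Mmp7 (1.98) rose, Itgb5 did not pass at 0.28, and Itgb3 and Itga9 were below the level tested. Without tumoroid 3 the count was 5 higher and the median 1.24. Itgav then did not pass (0.59, adjusted p = 0.0848), and the values were 1.99 for Cd44, 2.09 for Itgb6, 1.93 for Itga5, 0.34 for Itgb1 and 1.24 for Mmp7. The other bone-matrix proteins of the family, Ibsp, Dmp1 and Mepe, had 0 reads in all libraries. Itgb1 lay at 219 to 240 CPM in organoids, where Spp1 had at most 5 reads in any library.

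Clusterin receptors were few. Vldlr rose by 1.76 on the log2 scale (adjusted p = 0.011), Lrp8 did not pass at -0.05, and Lrp2 had at most 1.52 CPM and was not tested. The mesothelin relative Mslnl rose by 2.22 (adjusted p = 0.011). Stra6, which was read beside it but is a retinol transporter and no relative of mesothelin, had 2.22, 6.51 and 13.1 CPM in tumoroids and 0 reads in organoids (adjusted p = 4.77e-04). Muc16, the ligand of mesothelin, had at most 1.37 CPM and was not tested.

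The wider interleukin-1 system, of which Il1rn blocks only the interleukin-1 receptor, moved in both directions. Of 16 genes tested, 9 rose, 5 fell and 2 did not pass, with a median of 3.46, or 1.5 with 5 genes at the 3-read level. Those 5 genes, Il1r1, Il18r1 and Il1rl1 entered the test only through tumoroids, so the count is no measure of the list. Of all genes tested, 29.6% passed in the higher direction and 20.8% in the lower one. Without tumoroid 3, 8 rose and 5 fell, with a median of 1.10. Il33 rose by 4.21 (adjusted p = 5.42e-06), and the receptor Il1r1 had 5.26, 3.23 and 18.4 CPM in tumoroids against at most 0.264 in organoids (adjusted p = 7.71e-05). The agonist Il1a had 1.13, 0.297 and 2.95 CPM in tumoroids and 1 read in all organoid libraries, while the other agonist, Il1b, had 0 reads in all 9 libraries. The protease Casp1, which activates interleukin-1β, fell by 1.58 (adjusted p = 2.38e-05), as did Il18 by 1.58 and its binding protein Il18bp by 1.90. The adaptor Myd88 fell by 0.38 and the kinase Irak4 by 0.52, while the kinase Irak1 rose by 0.70 (adjusted p = 0.00261). By mean TPM, Myd88 was not lower in tumoroids, at 42.2 against 35.8 (WT-cM-titled) and 40.8 (T-cM-titled). Irak4, at 24.4 TPM in tumoroids, lay between the organoid groups at 22.6 (WT-cM-titled) and 26.0 (T-cM-titled). Without tumoroid 3 Il18 fell by 2.47.

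Of the 19 further foetal and revival genes, 13 rose in tumoroids, 3 fell and 3 did not pass, with a median of 1.86. The annexin Anxa3 rose by 2.89, and Ly6a, at 577, 247 and 1017 CPM against 2.64 to 11.2 in organoids, rose by 6.89 (adjusted p = 1.05e-06 and 4.79e-06). Basp1 and Il33 rose by 6.18 and 4.21. The 3 genes that fell, named after their values were seen, were Anxa10 (log2 fold change -4.73) and the EGF-receptor ligands Areg (-0.65) and Ereg (-2.18). Without tumoroid 3 the count was 12 higher and 1 lower, and Areg and Ereg did not pass (adjusted p = 0.0924 and 0.0612), while Anxa10 was at -6.93 and Ly6a at 6.29. S100a6, the gene of this list with the smallest p between the media, had a log2 fold change of 0.76 here (adjusted p = 0.0085).

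Msln is a gene of mesothelium and Spp1 one of macrophages, and the markers of these cells were measured beside them. Of the 4 mesothelial markers, Wt1 had 0 reads in all 9 libraries, Lrrn4 at most 0.0687 CPM, and the 4 summed to 8.91 to 21.2 TPM in tumoroids and 3.84 to 20.6 in organoids. Upk3b made up most of that sum in tumoroids, with 8.20, 13.2 and 20.7 CPM in tumoroids and 2.47 to 28.8 in organoids (adjusted p = 0.872), and Upk1b fell by 1.99 on the log2 scale (adjusted p = 0.0224), to at most 0.68 CPM in tumoroids from 1.32 to 2.93 in organoids. Of the 8 immune markers, 3 were tested and all 3 rose, namely Cd14 (47.7, 19.7 and 194 CPM in tumoroids), Cd68 (4.58, 5.58 and 20.5) and Csf1r (2.72, 20.4 and 4.50). Their list summed to 79.3 to 504 TPM in tumoroids and 7.12 to 9.63 in organoids. Cd14 made up most of that sum in tumoroids, at a mean of 196 TPM, with Cd68 at 28.9 and Csf1r at 6.91. Itgam, which was not tested, had 0.227, 0.409 and 0.309 CPM in tumoroids and 0.66 to 1.46 in organoids. The pan-leukocyte gene Ptprc, however, had at most 0.706 CPM in tumoroids and 0.902 in organoids, and the macrophage gene Adgre1, the T cell gene Cd3e and the B cell gene Cd79a had 0 reads in tumoroids. Fibroblast markers summed to 0.27 to 1.5 TPM in tumoroids with Col3a1 and Lum at 0 in every library, and endothelial markers to 0.14 to 1.68, with Kdr at 0. The endothelial gene Cdh5 passed with 1, 1 and 54 reads in tumoroids and 0 in organoids (adjusted p = 0.0358), and not without tumoroid 3 (adjusted p = 0.164). Without tumoroid 3 the median of the 3 immune markers went from 3.99 to 2.97, and Pdgfrb, the fibroblast marker tested, fell (log2 fold change -2.26, adjusted p = 0.0103, with 4 and 3 reads in tumoroids 1 and 2).

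Epithelial and stomach markers also differed. Of 6 intestinal epithelial markers, Krt18 rose by 1.38, while the brush border gene Vil1 fell by 2.15 and Krt8 by 0.75 (Epcam also fell without tumoroid 3, by 0.46, adjusted p = 0.0313), and the list summed to 9742 to 11610 TPM in tumoroids and 7628 to 10960 in organoids. Of 5 stomach markers tested, 3 rose and 1 fell, or 2 and 1 without tumoroid 3, and the list summed to 8.75 to 15.9 TPM in tumoroids and 1.88 to 22.6 in organoids. Tff1 fell by 4.27 on the log2 scale (adjusted p = 0.00793). The gastric mucins Muc5ac and Muc6, at 0 reads in organoids, had 17.6, 1.93 and 9.72 and 7.66, 16.6 and 0.275 CPM in tumoroids 1, 2 and 3, although the study's methods left out tumours near the ampulla. The part of any of these markers in the levels of the 6 genes was not tested.

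The 6 genes did not share one profile over the libraries. Pearson's r of log2 CPM between pairs of Clu, Msln, Gja1, Spp1 and Il1rn was 0.85 to 0.97 over 9 libraries, which mostly restates the gap between tumoroids and organoids. Sprr1a had r of -0.63 to -0.34 with each of the other 5. The 3 genes most like each one by this measure were Prox1os, Sox21 and Nr4a1 for Clu, Ajuba, Syt12 and Il33 for Msln, and Tes, Sh3bgr and H2-D1 for Sprr1a. They were Klhl14, Katnal2 and Klhl30 for Gja1, Gm10451, Ier3 and Serpinb11 for Spp1, and Meis3, Edn1 and Cd274 for Il1rn, and r was at least 0.976 in each case. The 3 genes picked for Msln, among them Ajuba, a LIM protein that restrains the Hippo kinases, passed in the higher direction in both comparisons, which their selection on the same libraries favours. Their log2 fold changes between the media were 1.05 for Ajuba, 0.72 for Syt12 and 1.32 for Il33. Serpinb11 resembled Spp1, which was near absent from organoids, with 0 reads in organoids and 132, 274 and 302 CPM in tumoroids. Klhl14 resembled Gja1 with 3.08, 1.11 and 19.8 CPM in tumoroids and 0 reads in organoids.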

How the data were processed

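RNA was sequenced as stranded poly(A)-selected libraries. The authors aligned reads to mm10 with STAR and counted them on Gencode vM13 genes. They deposited raw counts per gene, not normalised, and TPM, which the authors computed from counts per gene length with an equal sum in every library. The counting tool and its strand setting are not given in the sources used here. The study's methods speak of protein-coding genes, while other classes are in the tables, and all were kept. Columns of no sample numbered 0, and both tables were read by library name.

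Counts were analysed in R 4.3.3 with edgeR 4.0.16 (TMM factors, quasi-likelihood F test in the form used before edgeR 4, Benjamini-Hochberg adjustment over the 16208 genes reaching TPM 1 in any library). The organoid groups were compared over 6 libraries, blocked by replicate number, and tumoroids with the mean of both organoid groups over 9 libraries without one. Same-numbered organoid libraries deviated together from their group means (r = 0.55, 0.34 and 0.55 over genes), which sets the pairing. No 2 libraries of a group were alike within sampling noise. CPM used TMM-scaled library sizes, and log2 CPM a prior count of 2. Limma 3.58.1 (voom, and log2 TPM with pseudocounts of 1 and 0.1) and DESeq2 1.42.0 served as alternatives, and figures were drawn in Python 3.11.15. Methods were tested on simulated data. The members and the gene lists were chosen with earlier results of these data known. Named were the 6 genes, the genes of each list that passed with the smallest p (at most 5), direct partners of the 6, marker genes, and the 3 genes most like each of the 6. List counts without single libraries were added after the data were seen. Fits without single libraries kept the same 16208 genes, so some genes were tested there only through the library left out. The proteins of the genes and the promoters of Clu and Msln were not analysed here, and some genes of the lists are counted but not reported here by name.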

Additional observations from a re-analysis of the deposited data

How the results depend on the processing

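Between the organoid groups, 3 of the 6 genes passed and 1 was called. These counts did not change with RLE or upper-quartile factors, edgeR's expression filter, its newer quasi-likelihood method, voom or DESeq2, though genes called overall moved from 179 to 104 with voom and 93 with DESeq2. With no TPM filter Il1rn also passed (log2 fold change -0.36, adjusted p = 0.0407). With no replicate block, in the fit over all 9 libraries without it, and with limma on log2(TPM + 1) or log2(TPM + 0.1), 0 of the 6 passed, 0 were called and 0 genes were called overall. The log2 fold changes of Clu, Msln and Sprr1a stayed within 0.63 to 0.76, 0.82 to 1.26 and 0.73 to 0.91 over 14 alternatives. Leaving out 1 pair gave 0 to 4 of the 6 passing, 0 to 1 called and 1 to 385 genes called overall. The cause of these losses was not tested. Requiring a log2 fold change above 1 as well left 1 of the 6.

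Between tumoroids and organoids, Clu, Msln, Gja1, Spp1 and Il1rn passed under all 21 alternatives, including an added replicate block and either organoid group alone as the reference. For Gja1 and Spp1, which reached the TPM filter only through tumoroids, this is no independent support. The fit without tumoroid 3 kept Gja1 though that library alone had admitted it. Leaving out 1 library moved the log2 fold change of Sprr1a from -5.00 (without tumoroid 3, adjusted p = 5.34e-05) to 0.0018 (without tumoroid 2, adjusted p = 1), the single change of sign among these alternatives. With all libraries Sprr1a was at -2.80 with voom (adjusted p = 0.0594) and -2.10 with the replicate block (adjusted p = 0.151). On log2(TPM + 1) and log2(TPM + 0.1) it was at -2.21 and -2.39 (adjusted p = 0.108 and 0.0989). On the TPM scale the median over all genes was 0.64 (pseudocount 0.1) or 0.52 (pseudocount 1), and genes called higher and lower numbered 5131 and 1402 or 4174 and 1143, against 3400 and 1963 on counts. With 3 cultures a group, depth limits Gja1 and Spp1 in organoids and no other of the 6.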
